A study of Mus with 2 samples.

Results

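Interleukin-1 (IL-1) and IL-18 are cytokines that macrophages make to start inflammation, and both are held in check by antagonists and decoys. The 10 genes described here were Il1a, Il1b, Il1rn, Il1r1, Il1r2, Il1rap, Il18, Il18bp, Nlrp3 and Casp1, which encode the ligands of both systems, receptors and inhibitors, and the machinery that processes the ligands. They were chosen by name, not by their values, out of 20060 genes with a probe on the array. Each was measured in 2 arrays. BMDMs, macrophages grown for 7 d with 10 ng/mL of M-CSF from the bone marrow of male, 10-week-old C57BL6/J mice without a genetic change, were given 10 ng/mL of IL-4 for 24 h, the M2 condition, with either DMSO (1 array) or 10 µM GW4064 in DMSO (1 array). IL-4 and M-CSF were thus common to both arrays. GW4064 is a synthetic agonist of the farnesoid X receptor (FXR), a nuclear receptor for bile acids, and DMSO is its solvent. The number of mice or wells behind each RNA is not given in the sources used here. The free-text description of the GW4064 sample repeats that of the DMSO sample, whereas its title, source name and treatment label all name GW4064.

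IL-1α and IL-1β bind the same receptor, IL-1R1, which pairs with the accessory protein IL-1RAP to signal through MyD88. The IL-1 receptor antagonist, the product of Il1rn, occupies IL-1R1 without signalling, and IL-1R2 binds IL-1 but lacks a signalling domain, so that it acts as a decoy. IL-1β and IL-18 are made as inactive precursors. The sensor NLRP3 assembles an inflammasome that activates caspase-1, and caspase-1 cuts both precursors. IL-18 binding protein captures IL-18 outside the cell. In macrophages, Il1b is known as a gene of inflammatory activation, whereas IL-4 is known to raise the antagonist and the decoy receptor.

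Values below are processed signals, the brightness of a Cy3-labelled spot after the scanner software had subtracted the background, and differences are log2 of the GW4064 over the DMSO signal after the 75th percentile of each array had been set to 0. The 2 arrays shared 1 slide and 1 scan. A probe that the software did not call well above background on 1 array was given a bound there (at least N-fold). Since each condition was hybridised once, differences carry no error between cultures and were not tested, and this number of arrays limits their precision. The spread that could be measured was that over copies of a probe on the slide. The log2 difference had a median SD over copies of 0.21 for 16 probes under a signal of 50, of 0.13 for 31 probes between 50 and 200, of 0.077 for 53 probes between 200 and 1000 and of 0.071 for 143 probes from 1000 upwards. It holds no spread between cultures. Areas of the slide in which 2 or more other spots within 300 µm differed 8-fold or more between the arrays are called damaged areas, and covered 16.5% of the spots. The name stands for this rule alone. It counted spots of any brightness, also those at background, and whether the slide was physically damaged was not checked. Of the 12 probes for the 10 genes, 11 were printed once and 1, for Il1b, 10 times.

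The ligand genes of the IL-1 receptor and its antagonist were higher on the GW4064 array, and the receptor gene Il1r1 and the ligand gene Il18 were lower. Nlrp3, Casp1, Il1rap and Il18bp differed less than 1.2-fold, as did 74.7% of all measured genes. A signal well above background was found for 9 of the 10 genes. In sign, 5 differences were positive (higher with GW4064) and 4 negative, close to the 51.6% and 48.2% of all measured genes. Il1b alone was 2-fold or more higher (1 of 9, against 2.04% of all 13532 measured genes) and 0 were 2-fold or more lower (2.71% of all genes). At 1.5-fold, Il1b was higher (4.39% of all genes) and Il1r1 lower (5.56% of all genes). At 1.2-fold, a threshold chosen after the values were seen, 3 of the 9 were higher (12.5% of all genes) and 2 were lower (12.8% of all genes). The median log2 difference of the 9 genes was 0.13, against 0.0068 over all measured genes. It was that of Nlrp3 and reversed to -0.047 with centring on the spike-in RNA and to -0.014 after a normexp background correction.

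**Figure D1:**
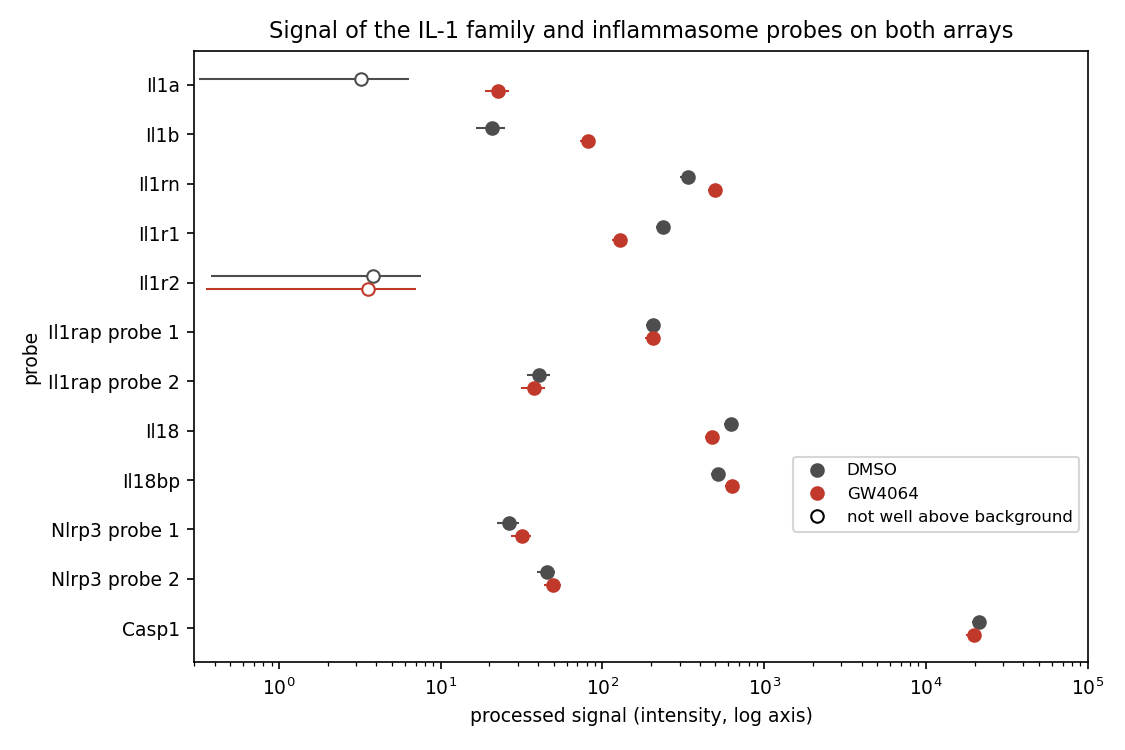
Processed signal (intensity, log axis) of the 12 probes on the DMSO array and the GW4064 array, with the error that the scanner software gives for a spot (lower ends cut short for the dimmest spots; for Il1b the mean over unmarked copies with the median error of a spot). The signals of Il1b lie at 20.7 and 81.1 and those of Il1r1 at 237 and 128, whereas Il1r2 is not well above background on either array.

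Among the ligands, Il1b, which encodes IL-1β, had the largest difference of the 9 genes. Its probe, matched to NM_008361, gave 10 values on each array. With DMSO these were 17.7, 25.6, 18.7, 18.2, 21.4, 22.0, 19.7, 23.2, 35.5 and 21.8, and with GW4064 the same positions gave 81.3, 79.0, 98.2, 80.5, 79.9, 76.9, 74.3, 84.4, 73.1 and 83.6. All 10 copies were higher with GW4064, and the highest copy with DMSO (35.5) was below the lowest with GW4064 (73.1). The software had marked 3 copies on the DMSO array as outliers among the copies, those at 17.7, 25.6 and 35.5. Without them the log2 difference was 1.90, a 3.74-fold higher signal, and over the 7 copies unmarked on both arrays it was 1.93 ± 0.20 (SD over copies of 1 slide, n = 7). Well above background were 8 of the 10 copies with DMSO and all 10 with GW4064. Of the 10 copies 3 lay in damaged areas, and the 7 others had a mean log2 difference of 1.90.

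The size of the Il1b difference depended on the processing. Before any correction, the median brightness of the 10 spots lay between 47 and 65 with DMSO. With GW4064 it lay between 100 and 142, again without overlap. The 153 negative control spots had medians of 28.5 with DMSO and 27 with GW4064. Their 95th percentiles were 47 and 44.8, and the brightest of them reached 129 and 199, above every Il1b copy on the same array. With the normexp correction, which also adds an offset of 50 to every signal, the log2 difference was 0.64, or 1.55-fold. The shares of the background correction and of the offset in this change were not separated. Under the other settings the log2 difference lay between 1.73 and 1.97. Differences of 2-fold were more frequent among dim genes. Of 2729 genes whose probes were all under a signal of 100 on both arrays, as for Il1b, 6.05% were 2-fold or more higher with GW4064 and 8.94% lower, against 1.03% and 1.14% of the genes with a brighter probe. Over all measured genes, 68 had a larger log2 difference than Il1b.

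**Figure D2:**
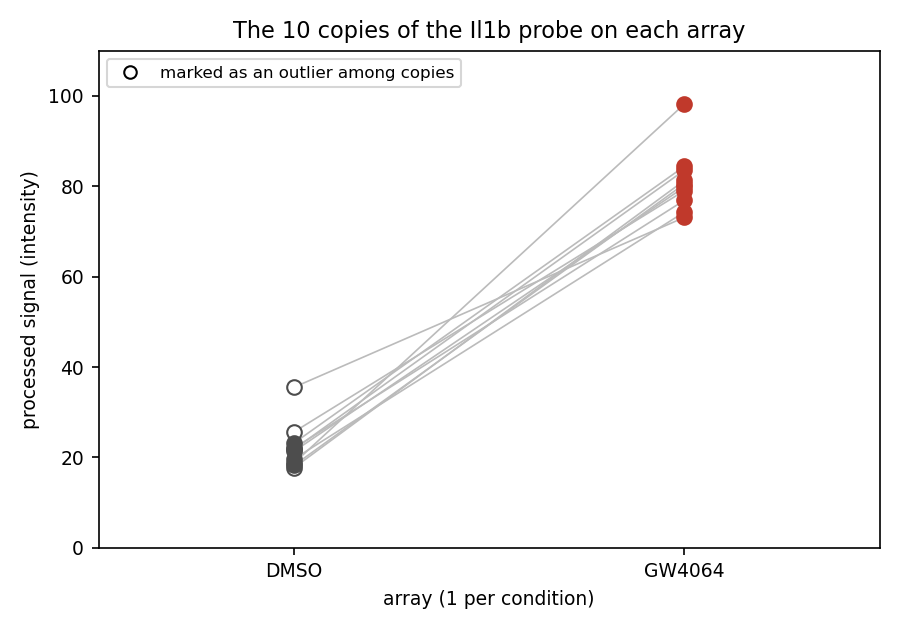
Processed signal (intensity) of the 10 copies of the Il1b probe with DMSO and with GW4064, with lines joining copies at the same position and open circles for copies marked as outliers. The copies lie between 17.7 and 35.5 with DMSO and between 73.1 and 98.2 with GW4064.

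Il1a, the gene next to Il1b in the mouse genome (annotation GRCm38.p6), encodes IL-1α. Its probe, matched to NM_010554 and printed once, had a signal of 3.20 with DMSO, not well above background, and of 22.5 with GW4064, well above background. Under the main setting Il1a was thus at least 1.37-fold higher with GW4064, a log2 difference of at least 0.45. It was 0.28 with centring on the spike-in RNA and 0.24 with the normexp correction. The software's error on the log2 difference of its own values (2.75) was 1.46. Uncorrected brightness was 33 with DMSO and 53 with GW4064, where the 95th percentile of the negative control spots was 47 and 44.8. Among all 39200 probes, 3.14% were, like that of Il1a, well above background only with GW4064, and 2.07% only with DMSO. Of genes this dim (all probes under a signal of 100), 27.1% were 1.2-fold or more higher with GW4064 and 30.2% lower. The share at the 1.37-fold bound of Il1a was not counted. No spot within 300 µm of it differed 8-fold or more.

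Il18, printed once (NM_008360), had a signal of 625 with DMSO and 477 with GW4064. Its log2 difference of -0.46, or 1.37-fold lower, was several times the median SD of 0.077 over copies of probes of that brightness. The software's error on this log2 difference was 0.20. Of genes with a probe at a signal of 100 or more, 8.42% were 1.2-fold or more lower. The spot lay in a damaged area, with 8 other spots that differed 8-fold or more within 300 µm, and Il18 had no other probe, so that no value was left once these areas were left out. The spots well above background within 500 µm of it had a median log2 difference of 0.0039.

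The remaining ligands of the family were at background. All 6 of them on the list, Il33, Il1f5, Il1f6, Il1f8, Il1f9 and Il1f10, had a probe, and 0 were well above background on either array, with signals of at most 13.2. Il1f5, Il1f6, Il1f8 and Il1f9 are the annotation's names for the genes of the IL-36 receptor antagonist and the IL-36 cytokines.

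Of the inhibitors, Il1rn was higher and Il18bp showed a smaller difference. Il1rn (NM_001039701) had a signal of 336 with DMSO and 499 with GW4064, a log2 difference of 0.50 or 1.42-fold, also several times the median SD of 0.077 over copies at that brightness. The scanner software's own error model put an error of 0.20 on this log2 difference. Of genes with a probe at a signal of 100 or more, 8.77% were 1.2-fold or more higher with GW4064, as Il1rn was. Il1rn stayed higher under all 13 settings tried, between 0.33 (centred on the spike-in RNA) and 0.52. Il18bp (NM_010531) went from 521 with DMSO to 634 with GW4064, a log2 difference of 0.22, which became 0.043 when centred on the spike-in RNA. For Il18bp the software's error on the log2 difference was 0.20, close to the difference itself. Both spots lay outside damaged areas.

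The decoy receptor gene Il1r2 (NM_010555) gave no signal well above background, with values of 3.79 with DMSO and 3.54 with GW4064, as were 39.4% of all probes, so no difference is given. Uncorrected brightness was 35.5 and 29, below the 95th percentile of the negative control spots on each array. Its only spot lay in a damaged area, where 5 spots nearby also differed 8-fold or more.

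The signalling receptor gene Il1r1 (NM_008362) was lower with GW4064. Its signal was 237 with DMSO and 128 with GW4064, a log2 difference of -0.95 or 1.93-fold. The median SD over copies of probes of that brightness was 0.13, and the software's error on the log2 difference was 0.21. Il1r1 stood just inside the 2-fold limit, and centring on the spike-in RNA moved it past that limit, to -1.13. After the normexp correction it was -0.68. It was lower under all 13 settings. Of all genes, 400 of 13532 had a lower value. The spot lay outside damaged areas, and the median log2 difference around it was -0.011.

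Il1r1 is also expressed by stromal cells, and markers of these cells were lower on the GW4064 array as well. Of 16 stromal cell markers 15 were measured, 13 were lower and 2 higher, against 48.2% and 51.6% of all measured genes. Their median log2 difference was -0.76, and their signals summed to 43952 with DMSO and 24465 with GW4064 (21658 and 11930 without the brightest, Sparc). Sparc had a log2 difference of -0.80 over both probes, Col6a1 of -1.25, Postn of -1.11 and Fbn1 of -1.07, whereas Kitl (0.30) and Pdgfra (0.065) were higher, and Lum did not reach a signal well above background. These genes encode proteins of the extracellular matrix, a cytokine and a growth factor receptor. The part of stromal cells in the lower signal of Il1r1 was not tested, and fewer cells of a type and less RNA per cell cannot be told apart in a bulk sample.

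The probes for Il1rap, the accessory protein shared by the receptors of several IL-1 family cytokines, gave values close to each other. The probe matched to NM_134103 had signals of 206 and 204, a log2 difference of -0.079, and that matched to NM_008364 had 40.7 and 37.6, a log2 difference of -0.18. These transcripts are different isoforms of the gene, and both differences were within or close to the spread over copies for their brightness (median SDs of 0.077 and 0.21). The mean of both probes was -0.13.

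**Figure D3:**
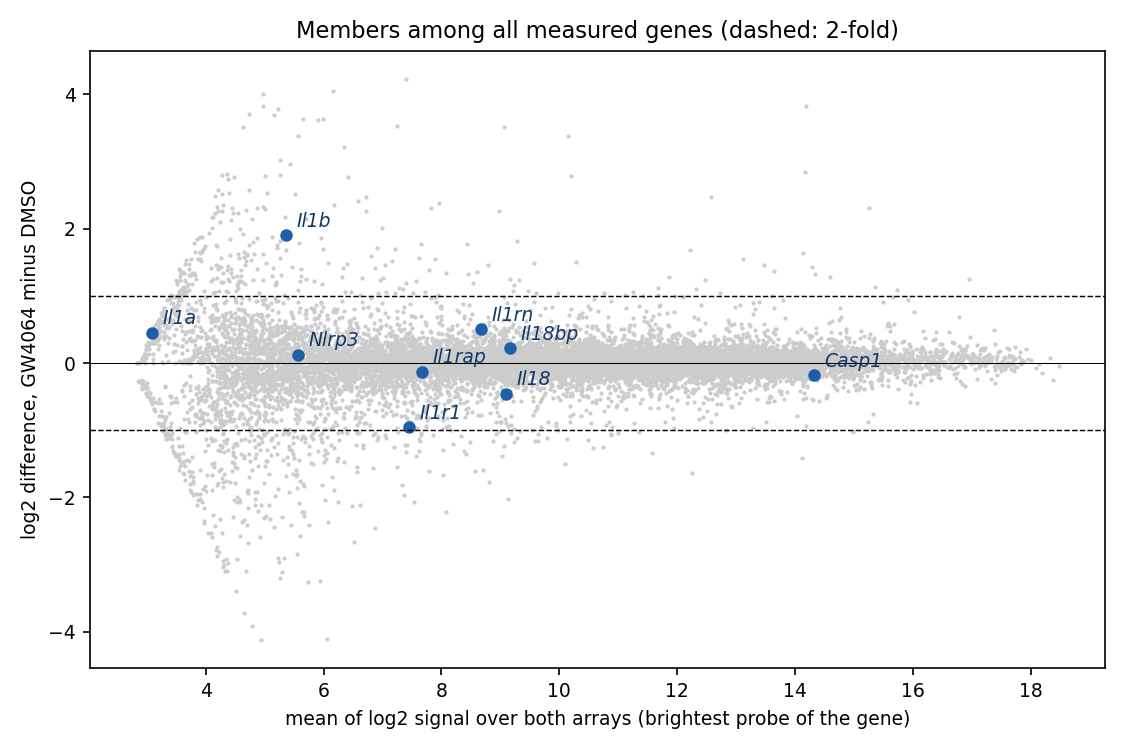
Log2 difference between the GW4064 and the DMSO array (vertical axis) against the mean log2 signal of both arrays (horizontal axis) for all 13532 measured genes (grey) and the 9 measured members (blue, named). The scatter widens towards low signals, where Il1a and Il1b lie, and Il1r1 lies just above the lower 2-fold line with a log2 difference of -0.95.

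Il1r1 and Il1r2 lie side by side with the genes of 4 related receptors in the annotation, in the order Il1r2, Il1r1, Il1rl2, Il1rl1, Il18r1 and Il18rap. Of these 6 genes 5 were measured. The sign was negative (lower with GW4064) for 4, against 48.2% of all measured genes, and positive for 1, against 51.6%, and for Il1rl2 the difference was within the median SD of 0.21 over copies of dim probes. Il1rl1, which encodes ST2, the receptor for IL-33, had the positive sign. Its brightest probe gave 3734 and 5662, a log2 difference of 0.53, that with 89.9 and 132 reached 0.49, and the probe matched to the other transcript (NM_010743), with 259 and 272, had 0.0045. Il18r1, a chain of the IL-18 receptor, had a signal of 36.1 with DMSO and was not well above background with GW4064 (10.8), at least 2.50-fold lower. That spot had 11 others differing 8-fold or more within 300 µm, and a further probe for Il18r1 gave no signal well above background. Il18rap, the other chain, had 37.2 and 26.5, a log2 difference of -0.55, and Il1rl2, the receptor for the IL-36 cytokines, had 29.4 and 29.6, a log2 difference of -0.054. Outside this cluster, Sigirr, an inhibitory receptor of the family, had 73.2 and 87.5, a log2 difference of 0.19.

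Genes of the signalling chain below IL-1R1 were close to level. All 18 genes listed, from Myd88 and the Irak kinases to Map3k7, were measured, and 9 were higher and 9 lower, against 51.6% and 48.2% of all measured genes. They lay between -0.27 and 0.22 on the log2 scale, with a median of -0.0017. Of all measured genes, 74.7% differed less than 1.2-fold. The highest was Irak2, an IL-1 receptor-associated kinase (0.22 over both probes), and the lowest Peli3 (-0.27), a ubiquitin ligase. Myd88, the shared adaptor, was printed 10 times and had -0.096. Tnip1, which restrains NF-κB, had 0.21 on 1 probe and -0.064 on the other.

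The processing genes differed little. Casp1, which encodes caspase-1 (NM_009807), had a signal of 21440 with DMSO and 19744 with GW4064, a log2 difference of -0.18. Its sign stayed negative under all 13 settings. In size it was above the median SD of 0.071 over copies of bright probes and below the software's error of 0.20. Nlrp3 had a pair of probes for the same transcript (NM_145827), with signals of 26.4 and 31.8 on the first and of 45.3 and 49.1 on the second. Their log2 differences of 0.20 and 0.051 were within the median SD of 0.21 over copies of dim probes, and the mean of 0.13 became -0.047 when centred on the spike-in RNA and -0.014 after the normexp correction. No direction is given for Nlrp3.

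Of 25 further inflammasome genes 24 had a probe and 23 were measured. With GW4064 10 stood higher and 13 lower, against 51.6% and 48.2% of all measured genes, at a median log2 difference of -0.076. None of the 23 was 2-fold or more different on either side, against 2.04% of all genes higher and 2.71% lower. Naip1, a sensor of bacterial proteins, was the only one at 1.5-fold or more, with a gene mean of 0.59. This rested on 1 of its probes, in a damaged area, which was at least 1.94-fold higher with GW4064 and had only a bound for DMSO, while the other, with signals of 85.1 and 104, had 0.22. Pycard, which encodes the adaptor ASC that joins NLRP3 to caspase-1, had 21923 and 29378, a log2 difference of 0.36. Ninj1, which ruptures the membrane of dying cells, had 39082 and 59625, a log2 difference of 0.54. P2rx4, an ATP-gated channel, had -0.13, and Gsdmd, whose product forms the pore through which IL-1β leaves the cell, had -0.19 over its copies. The probes for Nlrp1a disagreed, with 0.73 on the one in a damaged area and -0.27 on the other, and Mefv, which encodes pyrin, had -0.70 and -0.37.

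**Figure D4:**
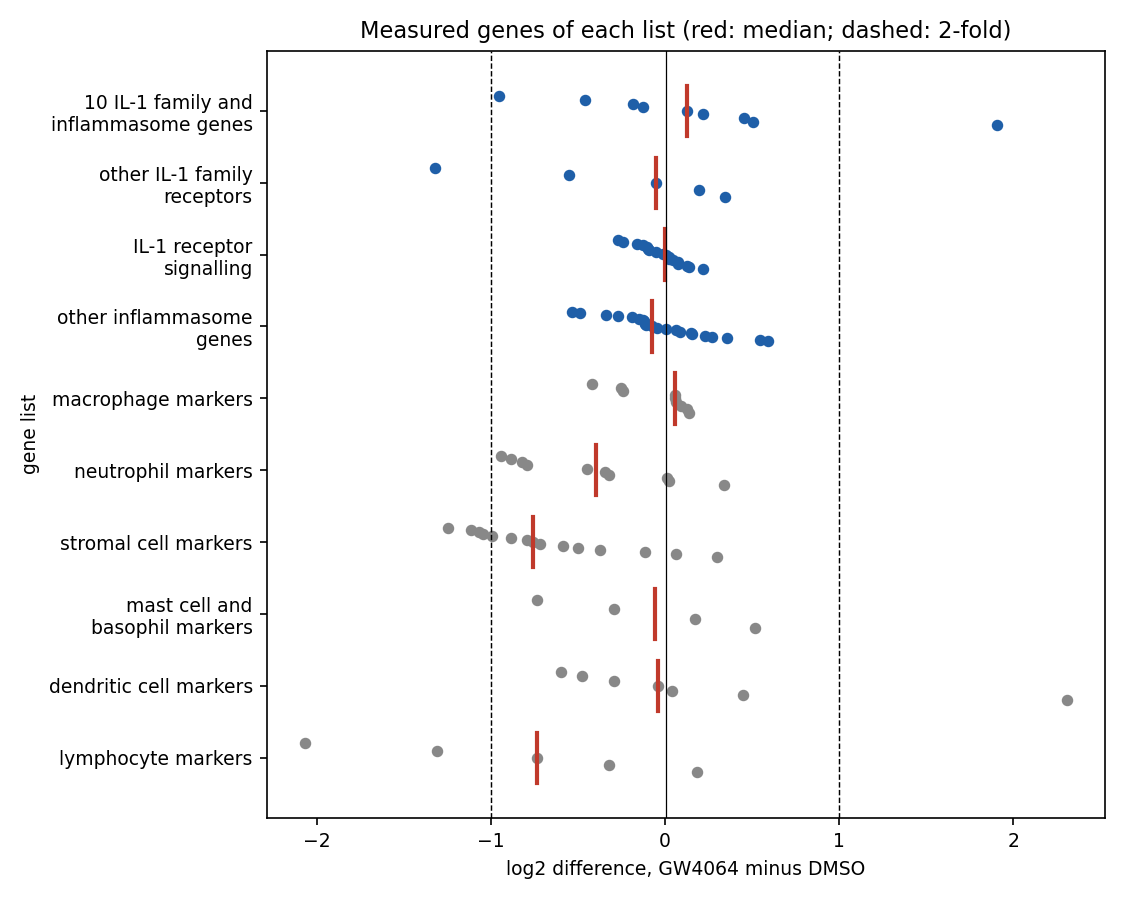
Log2 difference between the GW4064 and the DMSO array for every measured gene of each list (points), with the median of the list (red bar) and the median of all measured genes (thin line, 0.0068). The IL-1 receptor signalling genes lie between -0.27 and 0.22, whereas Il1b (1.90) and Il1r1 (-0.95) lie apart from the other members, and most stromal cell markers lie below 0.

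All 9 macrophage markers with a probe, such as Csf1r, Adgre1 and Lyz2, were well above background on both arrays, with log2 differences from -0.42 to 0.14. Of all probes, 57.4% with DMSO and 58.5% with GW4064 were well above background. Most stromal and neutrophil markers were measured too, so detection alone does not identify the cells. Markers of other cells that could carry Il1b or Il1a RNA are given as well. Of 12 neutrophil markers 10 were measured, 7 lower and 3 higher with a median of -0.40, against 48.2% lower and 51.6% higher of all measured genes. The lowest were Mpo at -0.94 and S100a9 at -0.88, and the 3 higher were Cxcr2 (0.34), Mmp8 (0.020) and Csf3r. The signals of the brightest probe of each neutrophil marker summed to 72866 with DMSO and 71203 with GW4064, most of it from Csf3r (58516 and 61730, a log2 difference of 0.011), and to 14350 and 9473 without Csf3r. Whether neutrophils had a part in the higher Il1b signal was not tested. Of 10 dendritic cell markers 7 were measured, 3 higher and 4 lower, against 51.6% and 48.2% of all measured genes. The median of these markers was -0.041. Their sums were 238652 and 212102, most of it from Itgax (-0.30, on a spot in a damaged area), and 52058 and 52975 without Itgax. Flt3 was at least 4.94-fold higher on a spot in a damaged area. Of 10 mast cell and basophil markers 4 were measured, with a median of -0.060 and sums of 251 and 277, or 173 and 160 without the brightest, Tpsb2 (0.51), and the defining markers Cpa3, Fcer1a and Ms4a2 were not well above background on either array. Of 10 lymphocyte markers 5 were measured, 4 lower and 1 higher, against 48.2% and 51.6% of all measured genes. The median of these markers was -0.73. Their sums were 789 and 580, or 507 and 344 without the brightest, Cd79b (-0.32). Klrb1c was at least 4.18-fold lower over its probes and Ms4a1 at least 2.47-fold lower. The probes for Klrb1c disagreed in size. The one well above background only with DMSO (signals of 175 and 12.3) was at least 12.1-fold lower, and the one measured on both arrays was 1.44-fold lower. The part of any of these cells in the differences above was not tested.

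**Figure D5:**
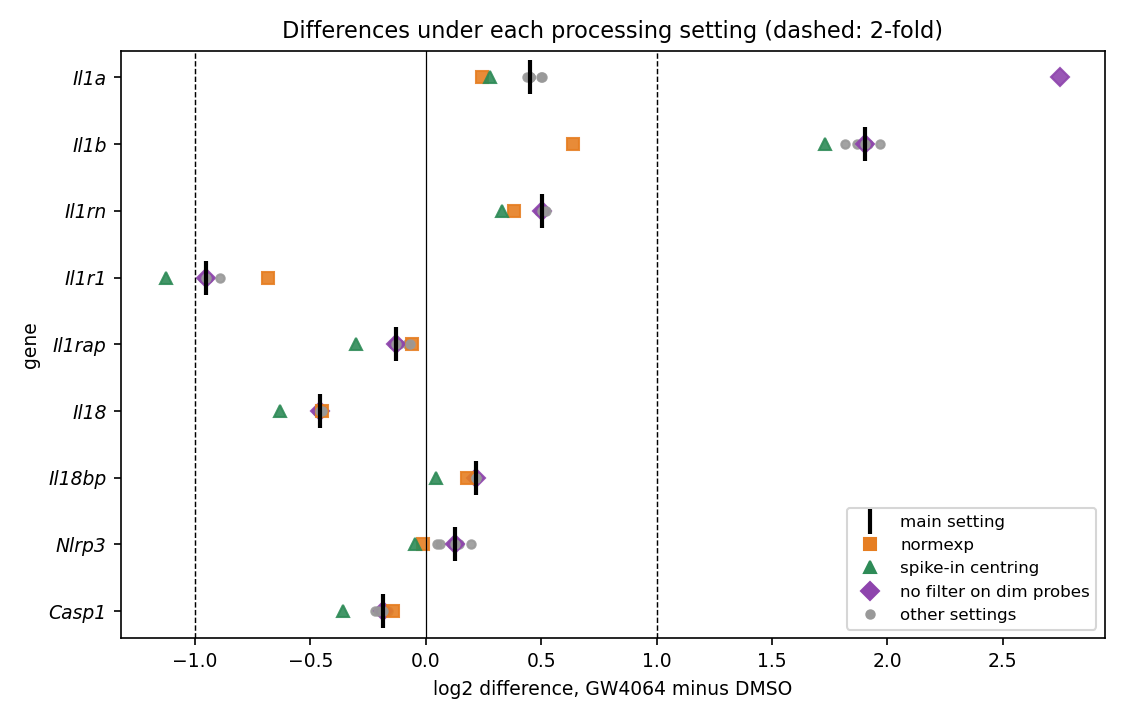
Log2 difference of each measured member under the main setting (black bar) and 12 other settings (symbols), with dashed lines at 2-fold. The signs hold for 8 of the 9 genes, Nlrp3 crosses 0, and Il1b falls from 1.90 to 0.64 with normexp.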

How the data were processed

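For each 1-colour Agilent array, the authors deposited scanner output with an intensity per spot from Agilent Feature Extraction 10.7.1.1 (per the labels and file headers), background-subtracted and detrended within the array, and a log2 table of both arrays. The difference between the columns of that table equalled the one from the intensities within 0.001, apart from a constant of 0.0022, for all 39030 probes printed once. The column medians were 0.035 (DMSO) and -0.051 (GW4064), and the baseline on which probes were centred is unknown. GeneSpring is named for the paper's analysis, without thresholds.

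From the intensities, log2 minus the 75th percentile over 43020 spots (1209 and 1265) was computed. Spots marked as non-uniform or as outliers among copies (399 and 207) were left out, and 0 were saturated. Copies were averaged. Probes well above background in most copies numbered 22518 and 22936, with lowest signals of 15.7 and 15.1, which set the bounds. Probes measured on at least 1 array were averaged per gene. Symbols came from RefSeq accessions of GRCm38.p6, which named 26445 of 39200 probes. The array's design used another build and no sequences were at hand, so neither coordinates nor sequences are given.

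The members, lists and settings were chosen with earlier results of these data known. Named were all members, pathway genes that differed 1.5-fold or more, marker genes that differed 2-fold or more and the brightest gene of each list (up to 4 markers a list by this rule). Others named for their role, their copies or their values were chosen after their values were seen, among them Pycard, Ninj1, Gsdmd, Mefv, Nlrp1a, Irak2, Peli3, Myd88, Sigirr, Il18rap, Il1rl2, Kitl, Pdgfra, Lum, Adgre1, Lyz2, S100a9, Mpo, Cxcr2, Mmp8 and mast cell markers other than Tpsb2. The calculations were tested on simulated data in which no dim probe was changed and the same spots were well above background on both arrays. Bounds and changes of dim probes were thus not covered. Normexp was run in R 4.3.3 with limma 3.58.1 on median spot and local background intensities, loess in statsmodels 0.14.6, and all else in Python 3.11.15 with pandas 2.3.3 and numpy 2.4.6.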

Additional observations from a re-analysis of the deposited data

How the results depend on the processing

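No paired analysis was possible because there is only 1 array of each condition. Subtracting the local median difference within 500 µm and the threshold of 1.2-fold were chosen after the data were seen. Over 12 settings beside the main one, Il1a, Il1b, Il1rn and Il18bp were higher and Il1r1, Il1rap, Il18 and Casp1 lower wherever they were measured, and Nlrp3 reversed with normexp (-0.014) and spike-in centring (-0.047). The median of the members reversed to the same values there, and to -0.0010 both without a filter on dim probes and when both arrays had to be well above background. Members 2-fold or more higher numbered 1, but 2 without a filter (Il1a at its own value, 2.75), 0 with normexp, 0 at 4-fold and 3 at 1.2-fold. Members 2-fold or more lower numbered 0, but 1 with spike-in centring, 1 at 1.5-fold and 2 at 1.2-fold.

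Over all genes, 276 were 2-fold or more higher and 367 lower. These counts became 168 and 202 without damaged areas, 698 and 767 without a filter, 72 and 64 with normexp, 107 and 164 for probes well above background on both arrays, 1686 and 1734 at 1.2-fold, 594 and 752 at 1.5-fold, and 65 and 79 at 4-fold. Spike-in centring shifted the median of all genes to -0.17, and 30.2% of the 2-fold genes were then higher, against 42.9%. With normexp 52.9% were higher. The other IL-1 family and inflammasome genes measured were 5 receptors, 23 inflammasome genes and 0 ligands. Of these, 0 were 2-fold higher and 1 lower (Il18r1), against 2.04% and 2.71% of all measured genes. The higher count became 2 without a filter, 1 at 1.5-fold (4.39% of all genes) and 5 at 1.2-fold (12.5% of all genes). The lower count became 6 at 1.2-fold (12.8% of all genes). It was 0 without damaged areas, with normexp, with only probes well above background on both arrays and at 4-fold. Low signal limits Il1a, Il1b, Il1r2 and Nlrp3 most.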
